A study of Mus musculus with 12 samples.

Results

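Il33 encodes interleukin 33, a cytokine of the interleukin 1 family, and it was 1 of 23479 genes measured by RNA sequencing in cultured cells of a mouse B-cell lymphoma. It was chosen by its own values: its level differed between the lymphoma lines in vehicle, and it changed with 4-hydroxytamoxifen (4-OHT) in the cells that carried an inducible TFEB and not in the others. These contrasts are therefore given below as a description, with no test. All cells came from an Eµ-Myc;Eµ-rtTA transgenic lymphoma on a C57BL/6 background, in which Myc is driven by the immunoglobulin heavy chain enhancer of B-lineage cells, and all were grown with IL-7. All had been transduced with a bicistronic retrovirus and selected with puromycin. In the vector line the retrovirus held only the puromycin marker, and in the TFEB-ERT2 line it also held TFEB, which is known to switch on genes of lysosomes and autophagy. TFEB was fused to ERT2, the altered hormone-binding part of human estrogen receptor, and carried an alanine in place of the serine at position 211, through which mTORC1 is known to hold it in the cytoplasm. 4-OHT is the ligand of ERT2, so vector cells in 4-OHT control for the drug. The vector line controls for the virus and the selection, and TFEB-ERT2 cells in vehicle carry the fusion without its ligand. Whether a difference between the lines came from the fusion or from some other difference between them was not tested. Treatment with vehicle or 4-OHT lasted 4 days, and each of the 4 groups had 3 libraries. The labels give the dose as 250 nM while the design text gives the same figure as ng/mL, which leaves the dose uncertain. The series describes 1 lymphoma and does not say whether either line was a clone. Nothing says that replicates came from separate cultures, and errors and p-values therefore measure the spread of these libraries alone.

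IL-33 is known as an alarmin: it is stored in the nucleus, bound to chromatin, and is released when a cell is damaged or dies. It is made mainly by endothelial, epithelial and fibroblastic stromal cells of barrier tissues and lymph nodes. Outside the cell it binds ST2, the product of Il1rl1, together with the shared subunit encoded by Il1rap, and signals through MyD88 and IRAK kinases to NF-kB in mast cells, innate lymphoid cells and T cells. Proteases of mast cells and neutrophils cut it to more active forms, and apoptotic caspases cut it within its cytokine part.

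Values are read counts that the authors normalized by library size. In vector cells in vehicle, the 3 libraries had 655.6, 672.0 and 753.3 normalized counts of Il33, and in vector cells in 4-OHT they had 699.9, 667.9 and 538.6. In TFEB-ERT2 cells in vehicle the values were 5831, 5504 and 5610, and in TFEB-ERT2 cells in 4-OHT they were 184.0, 113.6 and 124.2. The vector groups overlapped, every TFEB-ERT2 library in vehicle lay above every vector library, and every TFEB-ERT2 library in 4-OHT lay below all the others. The order of the means was TFEB-ERT2 in vehicle, at 5648 ± 167 (SD, n = 3), vector in vehicle, at 694 ± 52.3, vector in 4-OHT, at 635 ± 85.4, and TFEB-ERT2 in 4-OHT, at 141 ± 38.0. The neighbours in this order were separate, apart from the vector groups, whose difference was within their spread. In bulk RNA, fewer cells that contain a transcript and less of it per cell cannot be told apart.

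**Figure D1:**
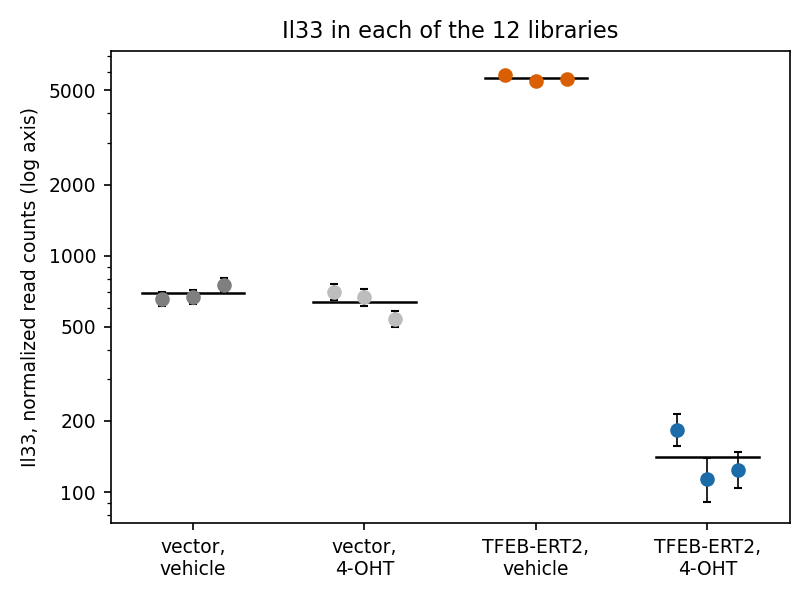
Il33 in normalized read counts (log axis) in each library of the 4 groups. Points are libraries, bars exact 95% Poisson intervals from the library's reads (where not seen, smaller than the point), and lines group means; TFEB-ERT2 cells stand above vector cells in vehicle and below them in 4-OHT.

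The spread of Il33 was not the same in all groups. Its coefficient of variation was 2.95% in TFEB-ERT2 cells in vehicle, 7.54% and 13.4% in vector cells in vehicle and in 4-OHT, and 27.0% in TFEB-ERT2 cells in 4-OHT. In the last group the values rested on 171, 88 and 128 reads. Their exact Poisson intervals at 95% ran from 157 to 214, from 91.1 to 140 and from 104 to 148 normalized counts. Replicate 1 thus stood above both others by more than counting error. Its highest bound remained far below the lowest vector library. In TFEB-ERT2 cells in vehicle, Il33 had 4058 to 6805 reads per library, and in vector cells 563 to 889.

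Across the 4-OHT treatment, Il33 in TFEB-ERT2 cells fell by 5.35 ± 0.14 (SE) on the log2(value + 1) scale. The ratio of the group means was 40.2. In vector cells the same contrast was -0.13 ± 0.14, and the difference between the responses was -5.22 ± 0.20. Among 13111 genes tested, those with at least 10 normalized counts in at least 3 libraries, this fall was the 3rd largest in TFEB-ERT2 cells, and it was also the 3rd largest among the 8821 of them whose mean reached 100. In vector cells Il33 ranked 3039th from the lowest.

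Between the lines, Il33 was 3.03 ± 0.14 higher on the same log2 scale in TFEB-ERT2 than in vector cells in vehicle, a ratio of means of 8.14. In 4-OHT it was -2.19 ± 0.14, a ratio of means of 4.52 in the other direction. In vehicle the excess was the 181st largest of 13111 tested genes, and the 10th largest of those 8821. Il33 was therefore not at its vector level in the TFEB-ERT2 line under either treatment, and 4-OHT moved it past that level. As background to these directions, 27.5% of tested genes passed the threshold for 4-OHT in TFEB-ERT2 cells, 0.0153% in vector cells, 15.8% for the difference between the responses, 5.38% between the lines in vehicle and 27.1% between them in 4-OHT. The threshold was an adjusted p of 0.05 in limma, with Benjamini-Hochberg adjustment. Groups that did not overlap were found in 38% of tested genes for 4-OHT in TFEB-ERT2 cells and in 10.8% in vector cells. Between the lines the share was 21.6% in vehicle and 39.1% in 4-OHT. Nothing is read from these shares for Il33, since these contrasts chose it.

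Tfeb was measured alongside, as the check of the labels. Its values were 252.2, 255.0 and 223.0 in vector cells in vehicle and 1597, 1955 and 1476 in TFEB-ERT2 cells in vehicle. They were 230.8, 194.6 and 238.4 in vector cells in 4-OHT and 701.6, 580.9 and 711.1 in TFEB-ERT2 cells in 4-OHT. Tfeb was thus higher in the TFEB-ERT2 line under both treatments, 6.83-fold in vehicle and 2.99-fold in 4-OHT (limma adjusted p = 2.8e-14 and 7e-10), whereas Il33 was higher in that line in vehicle and lower in 4-OHT. How far Tfeb reads come from the retrovirus was not tested.

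To set Il33 beside other transcripts, values were divided by the length of the gene's merged exons. Il33 has 2886 such bases and stood at 240 ± 18.1 and 220 ± 29.6 normalized counts per kb in vector cells in vehicle and in 4-OHT. It stood at 1957 ± 57.8 in TFEB-ERT2 cells in vehicle and at 48.7 ± 13.2 in 4-OHT (SD, n = 3 each). Among the 12373 tested genes with a length, these levels were at the 74.3rd, 72.3rd, 97.3rd and 39.0th percentiles. Rag1 was added as a reference level after its values were seen. Rag1, a recombinase of antigen receptor genes, was at 191 ± 19.1 per kb in TFEB-ERT2 cells in vehicle. Il18, a cytokine of the same family that caspase 1 matures, was at 16.2 ± 15.2 per kb there.

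Il33 lies on the plus strand of chromosome 19, at chr19:29925114-29960718 in GENCODE M21 on mouse build GRCm38, which is mm10. This annotation gives it 5 transcripts, all coding, with a pair of first exons far apart. Il33-202, Il33-204 and Il33-205 begin at the distal start and Il33-201 begins 20.677 kb further on, within the gene. Il33-203 begins inside the gene, beyond both. No other gene of that annotation overlaps Il33. In RefSeq, a long noncoding gene, Gm41832, overlaps its first bases. Whether reads were counted by strand was not stated in the sources used, so reads from the overlap could not be separated. The deposited table has 1 value per gene, so the starts could not be measured apart.

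The 250 bases before each start, from RefSeq on GRCm38.p6, are shown because TFEB is known to bind the E-box CACGTG, and because the starts share no bases. Distal start, chr19:29924863-29925112, plus strand, capitals marking the motif TATAAA.

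Il33 distal start: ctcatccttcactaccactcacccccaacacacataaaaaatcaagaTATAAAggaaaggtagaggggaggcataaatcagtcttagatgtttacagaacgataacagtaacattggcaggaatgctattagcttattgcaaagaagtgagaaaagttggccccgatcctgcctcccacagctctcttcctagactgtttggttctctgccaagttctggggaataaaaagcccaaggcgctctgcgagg

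Internal start, chr19:29945540-29945789, plus strand, capitals marking E-boxes of the form CANNTG, the RBPJ motif TGGGAA and the motif TATAAA.

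Il33 internal start: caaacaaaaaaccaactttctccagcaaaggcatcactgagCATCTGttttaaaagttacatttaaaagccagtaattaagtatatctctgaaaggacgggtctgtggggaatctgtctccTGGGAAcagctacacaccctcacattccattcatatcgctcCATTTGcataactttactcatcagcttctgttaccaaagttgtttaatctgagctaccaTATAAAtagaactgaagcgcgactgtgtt

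Both strands of each window were searched, and each share below is over the 32851 RefSeq promoter windows of the same length. CACGTG was in neither Il33 window and in 6.02% of all windows. TCACGTGA, a longer TFEB site that contains CACGTG, and the CLEAR element, which extends it by 1 base on each side, were also in neither window. They were in 0.785% and 0.241% of windows. The looser E-box CANNTG, which contains CACGTG, was found only in the internal window, at 209 and 88 bases before the start, and in 66.2% of all windows. TGGGAA, the core motif of RBPJ, the DNA-binding partner of Notch receptors, was in the internal window 129 bases before the start and in 21.6% of all windows. TATAAA stood 29 bases before the internal start and 203 bases before the distal one, and was in 12.4% of windows. The NF-kB form, GGGA and CC with 4 bases between (17.6% of windows), the STAT form TTCNNNGAA (7.02%), the AP-1 form TGANTCA (6.75%) and TCATGTG (3.25%) matched neither window. A match is a description of letters, and the absence of one says nothing about a factor beyond these windows.

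Of 18 genes annotated by RefSeq within 500 kb, 11 were in the deposited table and 8 were tested. For 4-OHT in TFEB-ERT2 cells, 1 of the 8 rose and 3 fell in limma, beside 13.7% higher and 13.9% lower of all tested genes. In vehicle between the lines, where Il33 was 3.03 higher on the log2 scale, limma called 0 of the 8, beside 5.38% of all tested genes, so a count of 0 is near that share. Their log2 differences ran from -0.04 to 0.71. At an unadjusted p under 0.05 there were 2, edgeR called 0 and DESeq2 1, which was Ermp1 (limma adjusted p = 0.0526, DESeq2 0.0107). Uhrf2, which begins 69.7 kb beyond Il33 and encodes a ubiquitin ligase that binds modified cytosine in DNA, was the nearest tested gene. It had 4473, 4640 and 4197 normalized counts in TFEB-ERT2 cells in vehicle and 1381, 1135 and 1601 in 4-OHT. It fell 3.26-fold (limma adjusted p = 1.19e-14), and its log2 difference between the lines in vehicle was -0.04 ± 0.10 (adjusted p = 0.883). Uhrf2 thus fell with 4-OHT as Il33 did, without the excess that Il33 had in vehicle.

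Pdcd1lg2, the gene of the T-cell inhibitory ligand PD-L2, ends 452.2 kb before Il33. In TFEB-ERT2 cells it had 3.446 ± 3.46 normalized counts in vehicle and 241.5 ± 21.4 in 4-OHT (SD, n = 3). It rose by 6.21 ± 1.28 on the log2(value + 1) scale (limma adjusted p = 0.000307), and the vehicle libraries were at or near the floor of 3 reads. Its interaction (adjusted p = 0.0292) was lost without any 1 of 7 libraries, with a highest adjusted p of 0.128, and with edgeR (0.0649) and DESeq2 (0.416). Ermp1 fell 1.31-fold (limma adjusted p = 0.00619) and 9930021J03Rik 1.25-fold (adjusted p = 0.00554). Neither fall passed without the 3 libraries that detected most genes (adjusted p = 0.122 and 0.0954), and that of 9930021J03Rik was also lost without replicate 2 of TFEB-ERT2 cells in 4-OHT (adjusted p = 0.0657). The closest tested gene on the distal side, Ranbp6, at 112.1 kb, did not pass (adjusted p = 0.566), with a log2 change of 0.19 ± 0.20.

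**Figure D2:**
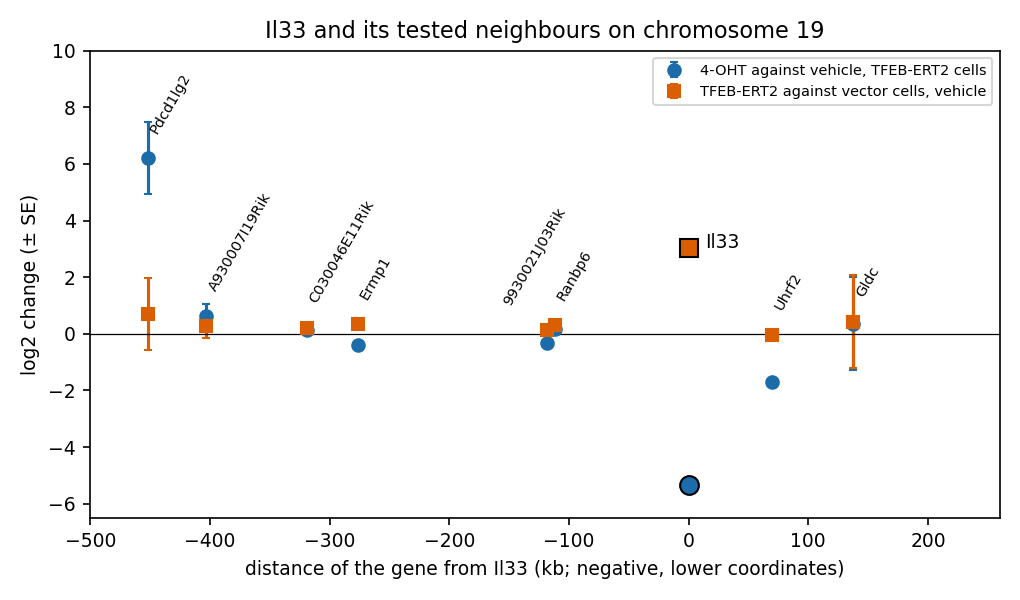
Log2 change (± SE) of Il33 (outlined) and its 8 tested neighbours against their distance from Il33 in kb, for 4-OHT in TFEB-ERT2 cells (circles) and for TFEB-ERT2 against vector cells in vehicle (squares). Il33 is the only gene plotted that is more than 2 log2 units from 0 in both; where no error bar is seen, it is smaller than the point.

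The genes whose pattern was most like that of Il33 were ranked by Pearson's r of log2(value + 1) over the 12 libraries, among 8477 named genes whose mean reached 100. The libraries fall in 4 groups, so r mostly reflects the group means, and it is given as a description. The highest were Mgarp (r = 0.986), Mtch1 (0.971), Me2 (0.971), Erg (0.969), Susd1 (0.966), Trim24 (0.965), Clcn3 (0.962) and Cyb5 (0.962). In all, 1.06% of the ranked genes had r above 0.9. Mgarp, which encodes a mitochondrial membrane protein, had means of 408 ± 53.4 and 389 ± 112 in vector cells in vehicle and in 4-OHT, and of 1265 ± 170 and 150.5 ± 31.4 in TFEB-ERT2 cells (SD, n = 3 each). It was 3.09-fold higher between the lines in vehicle and 8.42-fold lower with 4-OHT in TFEB-ERT2 cells. Erg, a transcription factor of the ETS family known from endothelial and blood stem cells, had means of 1889 ± 316, 1325 ± 187, 3861 ± 243 and 574.8 ± 7.57 in the same order. It was 2.06-fold higher in vehicle and 6.70-fold lower with 4-OHT. The pattern of Mgarp had the shape of that of Il33 with a smaller range. That of Erg also had a smaller range, but Erg was lower with 4-OHT in vector cells too. Its log2 change there was -0.51 ± 0.11, which did not pass in limma (adjusted p = 0.137) but did in DESeq2 (0.00903). The vector libraries of Erg did not overlap between vehicle and 4-OHT, whereas those of Il33 did. In that comparison 10.8% of all tested genes had groups that did not overlap. The other 6 genes were 1.28-fold to 1.57-fold higher in vehicle and 1.62-fold to 3.17-fold lower with 4-OHT.

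The most opposite genes were Mtor (r = -0.983), Ets2 (-0.973), Zfp568 (-0.967) and Gaa (-0.963). Mtor encodes the kinase of mTORC1, and Ets2 an ETS family transcription factor. Mtor had means of 12440 ± 520 and 12950 ± 1139 in vector cells and of 6501 ± 256 and 25720 ± 636 in TFEB-ERT2 cells in vehicle and in 4-OHT. Where Il33 was high Mtor was low, and the reverse. Gaa, the lysosomal enzyme that digests glycogen, went from 637 ± 53.5 to 1491 ± 141 in TFEB-ERT2 cells, and the vector groups, at 1148 ± 22.4 and 1000 ± 92.7, lay between. With Spearman's rank measure, 0 of the 8 most similar and 0 of the 4 most opposite genes were the same, and Mgarp was then 35th. Which genes led the ranking thus depended on the measure. With a lower minimum mean of 20, all 8 and all 4 were the same.

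**Figure D3:**
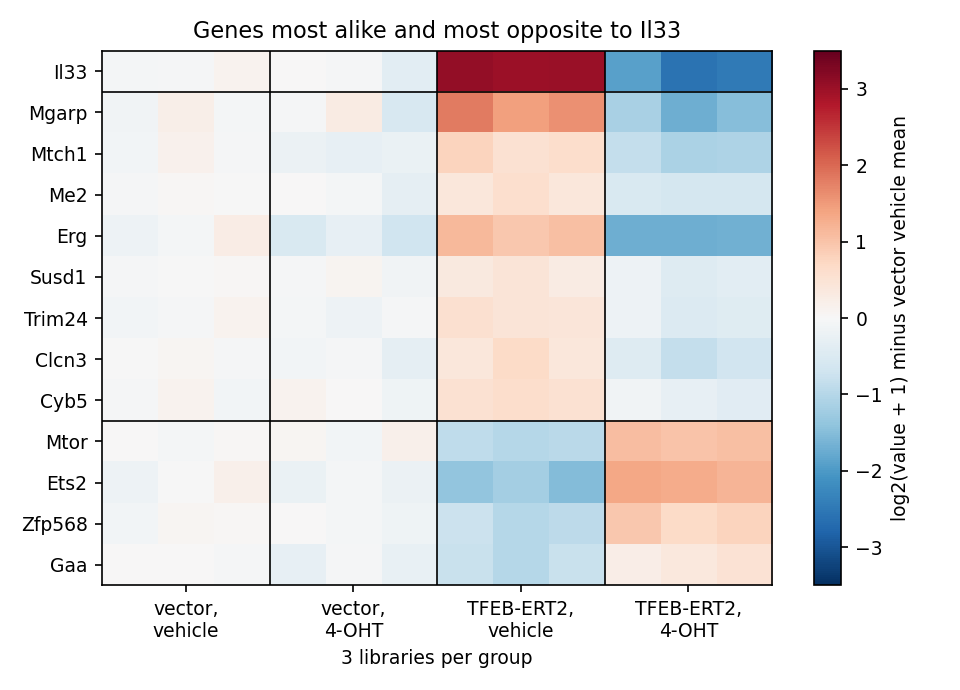
Log2(value + 1) of Il33, the 8 most similar and the 4 most opposite genes in each library, minus the gene's mean in vector cells in vehicle (colour scale in log2 units). The 8 genes are above 0 in TFEB-ERT2 cells in vehicle and below 0 in 4-OHT, as Il33 is, with smaller differences, and the other 4 are reversed.

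The genes around IL-33 biology were taken from 8 lists: its receptor and signalling chain, the proteases that cut it, lytic release, the interleukin 1 family, other alarmins, NF-kB, cytokines and targets of its action, and transcription factors of inflammation. Of their 125 genes, 81 were tested. For 4-OHT in TFEB-ERT2 cells, 28.4% of the 81 rose and 16.0% fell, beside 13.7% and 13.9% of all tested genes. Between the lines in vehicle, 6.2% were higher and 2.5% lower, beside 2.89% and 2.49%. For the difference between the responses, 16.0% were higher and 12.3% lower, beside 7.75% and 8.01%. In vector cells, limma called 0 of the 81 with 4-OHT. At an unadjusted p under 0.05 there were 9, edgeR called 0 and DESeq2 1.

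The receptor was close to absent. Il1rl1, the gene of ST2, had 0 reads in 7 of 12 libraries, which allows up to 3 reads or 2.21 to 4.15 normalized counts, and it was not tested. Its highest values, 24.9 and 34.9, were in the replicates 2 of both 4-OHT groups. Those are the libraries in which the most genes had a read. Il1rap, the shared subunit, had 31.0, 25.2 and 54.0 normalized counts in vector cells in vehicle and 90.8, 152.6 and 138.2 in TFEB-ERT2 cells in vehicle. These did not overlap, and Il1rap was 3.49-fold higher (limma adjusted p = 0.00476), as Il33 was in the same comparison. The call was lost when only those groups were fitted (adjusted p = 0.0539). With 4-OHT in TFEB-ERT2 cells its log2 change was -0.34 ± 0.40 (limma adjusted p = 0.637). In vector cells in 4-OHT, Il1rap had 62.3, 74.7 and 99.8. All were above the vector libraries in vehicle, in a comparison where 10.8% of all tested genes had groups without overlap. The means of Il1rap in 4-OHT were thus close, at 78.9 ± 19.1 in vector cells and 98.8 ± 13.6 in TFEB-ERT2 cells. The difference between the responses did not pass in limma (adjusted p = 0.0815) but did in edgeR (0.0487) and DESeq2 (0.0165).

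The adaptor and kinases did not all move in 1 direction. Of 13 tested genes of the receptor and signalling list, 3 rose and 1 fell with 4-OHT in TFEB-ERT2 cells, beside 13.7% and 13.9% of all tested genes. The median log2 change of the 13 was 0.08, beside 0.035 over all tested genes. Myd88 had 305.0, 236.9 and 304.1 normalized counts in TFEB-ERT2 cells in vehicle and 746.8, 557.6 and 718.9 in 4-OHT. It rose 2.38-fold (limma adjusted p = 1.6e-06), with an interaction of 1.21 ± 0.25 (adjusted p = 0.000715). Irak2, a kinase of the same complex, had 38.6, 0 and 12.4 in vehicle and 535.9, 435.0 and 385.1 in 4-OHT, and rose by 5.79 ± 0.81 on the log2(value + 1) scale (adjusted p = 1.02e-06). Both were separate between the groups, in the direction opposite to Il33. Irak3, a brake on these kinases, fell 1.57-fold from 863.5 ± 54.4 to 552.5 ± 63.0 (limma adjusted p = 0.000179). Tollip, an adaptor that restrains them, rose 1.36-fold (adjusted p = 0.0027).

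Of the proteases, 7 were tested. The genes of the neutrophil and mast cell proteases in the list, Elane, Ctsg, Prtn3, Cma1, Mcpt4, Tpsb2, Tpsab1 and the granzyme gene Gzmb, had reads in at most 4 libraries each and were not tested. Casp1, whose product matures other interleukin 1 family cytokines, had 236.7, 248.7 and 288.3 normalized counts in vector cells in vehicle and 930.6, 1055 and 821.1 in TFEB-ERT2 cells in vehicle. It was 3.61-fold higher (limma adjusted p = 2.69e-10), and it was also 3.44-fold higher in 4-OHT (adjusted p = 3.91e-11). With 4-OHT in TFEB-ERT2 cells its log2 change was -0.15 ± 0.15 (adjusted p = 0.546). Casp1 shared the excess of Il33 in vehicle and kept it where Il33 was low. Capns1, the small subunit of calpains, rose 1.33-fold with 4-OHT in TFEB-ERT2 cells (limma adjusted p = 0.000161). Of 5 tested genes of lytic release, Ripk1, a kinase of inflammatory cell death, rose 1.56-fold (adjusted p = 2.09e-05) in limma, where the other 4 did not pass. DESeq2 called 3 of the 5, all higher, and 3 had an unadjusted p under 0.05.

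Of the other cytokines of its family in the list, Il18 had the highest group mean, 16.73 ± 15.6 in TFEB-ERT2 cells in vehicle, against 5648 ± 167 for Il33. Il1a, Il1b and Il1rn had reads in 3, 2 and 3 of 12 libraries, and 4 of the 17 other family genes were tested. Il1r1, the receptor of IL-1, went from 12.75 ± 13.2 to 102.9 ± 35.8 with 4-OHT in TFEB-ERT2 cells. Its rise (limma adjusted p = 0.0206) was lost without replicate 2 of TFEB-ERT2 cells in vehicle (adjusted p = 0.163), without replicate 2 or 3 in 4-OHT (adjusted p = 0.0885 and 0.0881), with edgeR (adjusted p = 0.0836) and with DESeq2 (adjusted p = 0.107).

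Of 7 other alarmins tested, 3 fell with 4-OHT in TFEB-ERT2 cells, beside 13.9% of all tested genes. The median log2 change of the 7 was -0.27, beside 0.035 over all tested genes, and the 3 are chromatin proteins. Hmgb2 fell 1.63-fold from 13540 ± 1582 to 8295 ± 395 (limma adjusted p = 1.37e-07), and Hmgn1 1.69-fold from 2346 ± 308 to 1379 ± 90.7 (adjusted p = 2.14e-07). Hmgb1, like them a chromatin protein known to act as an alarmin outside the cell, fell 1.21-fold (adjusted p = 0.0143), a call lost without replicate 2 of TFEB-ERT2 cells in vehicle (adjusted p = 0.0544). They fell as Il33 did, by far less, and in vehicle their log2 differences between the lines were -0.01 to 0.17 (limma adjusted p = 0.28 to 0.955).

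**Figure D4:**
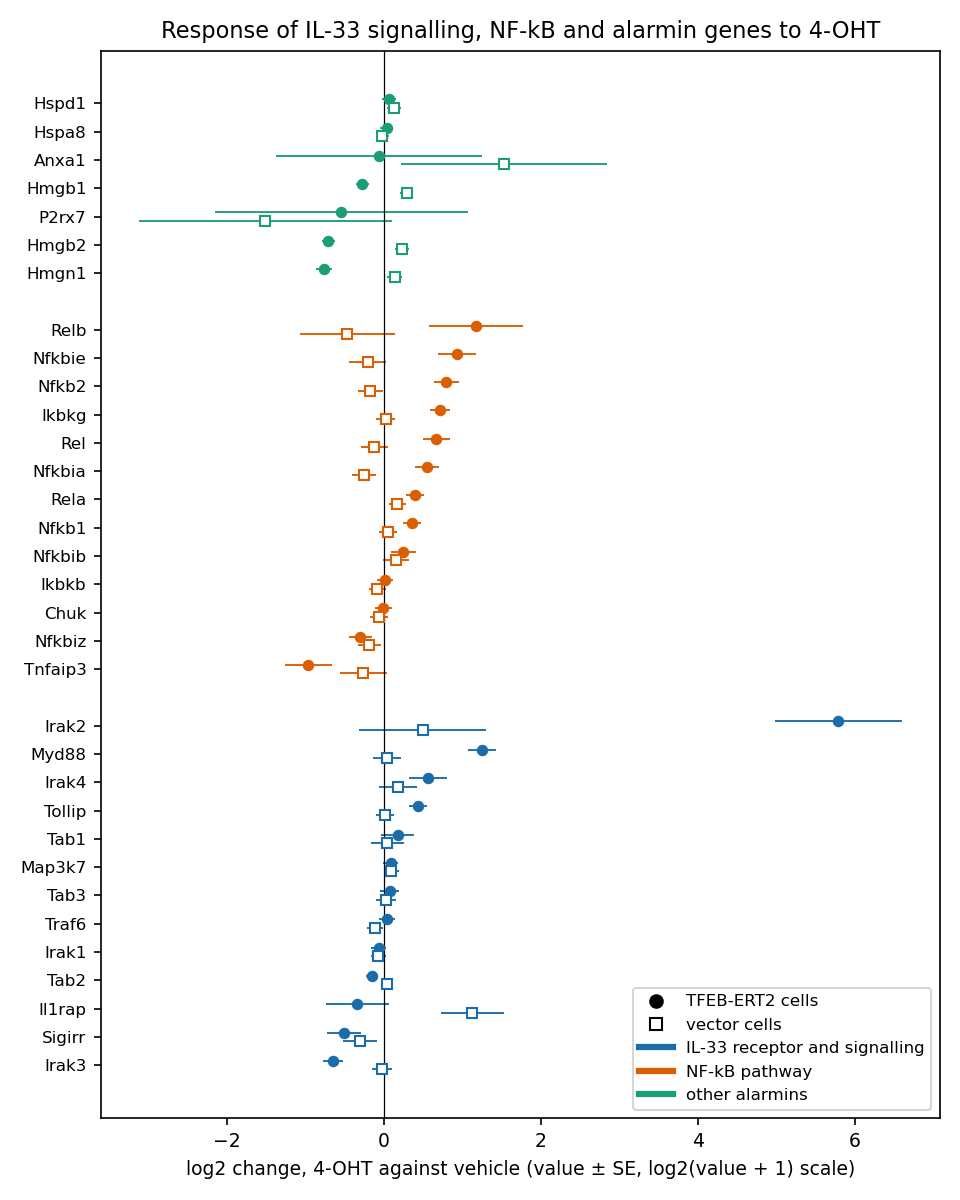
Log2 change with 4-OHT (value ± SE) of the tested genes of 3 lists, in TFEB-ERT2 cells (filled) and in vector cells (open). Myd88, Irak2 and most NF-kB genes lie above 0 in TFEB-ERT2 cells, and Hmgb1, Hmgb2 and Hmgn1 below it.

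Of 13 tested NF-kB genes, 7 rose and 1 fell with 4-OHT in TFEB-ERT2 cells, with a median log2 change of 0.40. Of all tested genes 13.7% rose and 13.9% fell, with a median of 0.035. Without the 3 libraries that detected most genes, 4 rose and 1 fell. Nfkb2, the precursor of p52, rose 1.74-fold from 384.5 ± 63.0 to 664.7 ± 43.5 (limma adjusted p = 0.000233), and Ikbkg, the regulatory subunit of the IkB kinase, 1.64-fold (adjusted p = 3.14e-05). Nfkbie, which encodes an inhibitor of NF-kB, rose 1.91-fold (adjusted p = 0.00298; 0.0535 without those 3 libraries). Tnfaip3, the gene of the inhibitor A20, fell 1.94-fold (adjusted p = 0.0152), a call lost without replicate 3 of TFEB-ERT2 cells in vehicle (0.0717) or in 4-OHT (0.113). The 7 NF-kB genes rose in the comparison in which Il33 fell.

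Most cytokines through which IL-33 is known to act were hardly detected. Of 17 genes in the list, 6 were tested, and Ccl2 was at 0 in every library. With 4-OHT in TFEB-ERT2 cells 1 of the 6 rose, the chemokine gene Ccl17, which was at 0 in the vehicle libraries and at 18.41 ± 11.2 in 4-OHT (limma adjusted p = 0.0299; 0.142 without replicate 2 in 4-OHT and 0.0604 in edgeR). Tnf had means of 2.966 ± 4.47 in vector cells and 28.71 ± 2.12 in TFEB-ERT2 cells in vehicle, and was higher in the latter (limma adjusted p = 0.00627; 0.0862 when only those groups were fitted). In TFEB-ERT2 cells in 4-OHT its mean was 121.5 ± 9.72 (adjusted p = 0.0628 against vehicle; 0.00131 in DESeq2). Il2ra, a subunit of the IL-2 receptor, was 1.36-fold higher between the lines in vehicle (limma adjusted p = 0.00627), a call lost without replicate 1 of vector cells (0.0598) or replicate 3 of TFEB-ERT2 cells in vehicle (0.0583).

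Of 26 tested transcription factors of inflammation, 9 rose and 7 fell with 4-OHT in TFEB-ERT2 cells, beside 13.7% and 13.9% of all tested genes. Hes1 and Heyl are Notch targets and belong to that list, as does RBPJ, whose motif was searched above. Hes1 had 206.5, 218.0 and 230.8 normalized counts in vector cells in vehicle and 335.9, 588.0 and 342.8 in TFEB-ERT2 cells in vehicle, with 122.7, 64.5 and 67.9 in TFEB-ERT2 cells in 4-OHT. It fell 4.96-fold with 4-OHT (limma adjusted p = 1.07e-07), and its excess in vehicle did not pass (adjusted p = 0.0606), although the libraries did not overlap and it did pass in edgeR (0.0326) and DESeq2 (0.00803). Heyl fell from 195.7 ± 36.1 to 2.905 ± 4.22 (limma adjusted p = 4.86e-11). In vehicle its log2 difference between the lines was -0.81 ± 0.53 (limma adjusted p = 0.449, DESeq2 0.0272). Heyl was also lower with 4-OHT in vector cells, at 356 ± 137 in vehicle and 159 ± 34.0 in 4-OHT. That fall did not pass in limma (adjusted p = 0.782) but did in DESeq2 (0.0206). Batf, an AP-1 factor of lymphocytes, rose 2.5-fold with 4-OHT in TFEB-ERT2 cells (limma adjusted p = 0.000124).

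The cells were checked against markers of their own lineage and of the cells known to make IL-33. Of 14 tested B-lineage genes, 10 fell and 2 rose with 4-OHT in TFEB-ERT2 cells, with a median log2 change of -1.13, beside 13.9% lower and 13.7% higher of all tested genes, and the counts were the same without the 3 libraries that detected most genes. Their summed level was 96550 to 108600 normalized counts in the libraries of the other groups and 74980 to 77140 in TFEB-ERT2 cells in 4-OHT. Vpreb3, of the pre-B cell receptor, fell 6.35-fold from 6261 ± 425 to 984.5 ± 55.0 (limma adjusted p = 4.84e-20), and Rag1 13.6-fold (adjusted p = 1.49e-16). In vehicle, where Il33 differed 8.14-fold, limma called 0 of the 14 between the lines, a count near the 5.38% of all tested genes. There were 4 at an unadjusted p under 0.05, edgeR called 1 and DESeq2 1. The edgeR call was Rag2 (adjusted p = 0.0113), which was lower in TFEB-ERT2 cells in vehicle. It had 391.6, 490.3 and 504.3 normalized counts in vector cells and 262.2, 200.6 and 128.6 in TFEB-ERT2 cells, without overlap. The DESeq2 call was of a gene that was higher. The part of the B-lineage change in that of Il33 was not tested.

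Markers of the cells that usually make IL-33 were low. The endothelial list summed to 699.5 to 930.7 normalized counts per library, nearly all of it Pecam1, which B cells also express. Without it, Cdh5, a defining endothelial cadherin, had group means of 11.74 to 26.93. The stromal list summed to 1.574 to 24.34 in vector cells in vehicle, 22.83 to 238.5 in 4-OHT, 3.201 to 98.15 in TFEB-ERT2 cells in vehicle and 24.75 to 309.8 in 4-OHT. Ccl19 and Ccl21a, which define lymph node stroma, were at 0 in all libraries. The epithelial list summed to 8.709 to 22.12 and 10.99 to 102 in vector cells, and to 73.63 to 134.1 and 176.6 to 277.5 in TFEB-ERT2 cells. In TFEB-ERT2 cells most of that was Cldn4, a tight junction protein, which was 5.34-fold higher in vehicle (limma adjusted p = 0.00822), while Krt5, Krt8, Krt14, Krt18 and Krt19 had group means of at most 6.673. In TFEB-ERT2 cells in vehicle Il33 alone had 5504 to 5831 normalized counts, more than the summed level of any of these 3 lists in any library. In the other groups it was below the endothelial sum. Il33 had 538.6 to 753.3 in vector cells, where that sum was 812.9 to 930.7. It had 113.6 to 184.0 in TFEB-ERT2 cells in 4-OHT, where the sum was 699.5 to 836.4.

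Of the cells that respond to IL-33, the mast cell and basophil list summed to 25.36 to 112 normalized counts over all libraries, and 2 of its 8 genes were tested. The macrophage and dendritic cell list summed to 153.3 to 444. Mrc1, the mannose receptor, fell 4.23-fold with 4-OHT in TFEB-ERT2 cells (limma adjusted p = 3.07e-05), and Cd68, a lysosomal membrane protein, rose 2.52-fold (adjusted p = 0.00574). The T and innate lymphoid list summed to 2069 to 2840, nearly all of it Il7r, the IL-7 receptor, which pre-B cells carry. Of the 25 tested genes of the 6 lists of other cell types, 1 rose and 1 fell with 4-OHT in TFEB-ERT2 cells, beside the same 13.7% and 13.9%. Their part in the pattern of Il33 was not tested, and without the 3 libraries that detected most genes the log2 change of Il33 with 4-OHT in TFEB-ERT2 cells was -5.19.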

How the data were processed

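RNA was measured in 12 libraries, 3 in each of 4 groups. The deposited values are a signal, normalized read counts made by the authors with 1 size factor per library. The submitters' processing notes name mm10, DESeq2 1.6.3, HTSeq 0.6.1 and STAR 2.5.3. Gene annotation and strand setting were not stated in the sources used. In every library 100% of values were whole multiples, within 0.001, of the value of 1 read, so whole reads were recovered: 11849029 to 22109283 per library, with 11390 to 19250 genes read. Floors of 3 reads and Poisson intervals cover counting error only.

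Of 23479 genes, 13111 with at least 10 in at least 3 libraries were tested with limma 3.58.1 in R 4.3.3 (variance trend, 1 mean per group) on log2(value + 1), so folds of low genes are understated. Adjustment was Benjamini-Hochberg over all tested genes, at 0.05, in 5 comparisons that share libraries. Alternatives were edgeR 4.0.16 and DESeq2 1.42.0 on whole reads, other pseudocounts, filters, scaling and weights, and libraries left out, also the 3 that detected most genes: replicates 2 of vector and TFEB-ERT2 cells in 4-OHT and replicate 1 of TFEB-ERT2 cells in vehicle. The limma step was tested on simulated data.

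Il33 and the gene lists were chosen with earlier results of these data known. Named were: Il33, Tfeb, Il1rl1, Il1rap and Myd88; the 8 most and 4 least correlated genes with a mean of at least 100, without predicted genes; genes within 500 kb; and of each list up to 4 called genes of largest change with 4-OHT in TFEB-ERT2 cells and up to 2 between the lines in vehicle, or else its most abundant member. List members at or near 0 are also named. Rel, Rela and other genes outside these rules are counted only. The deposited table holds no coordinates. Neighbours and promoters came from RefSeq GRCm38.p6, lengths from GENCODE M21. Adgre1 and Trac were not matched. Some listed genes that were tested are not reported here.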

Additional observations from a re-analysis of the deposited data

Results flagged for a closer look

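For 24 of 46 named genes that were tested and had not been chosen by likeness to Il33, the response to 4-OHT differed between the lines by the interaction term of limma, with an adjusted p under 0.05. Over all tested genes, 15.8% did. List genes were mainly named for a called change, with 4-OHT in TFEB-ERT2 cells or between the lines in vehicle. That choice favours a difference between the responses, so nothing is read from the count of 24. Values are the log2 change in TFEB-ERT2 cells minus that in vector cells. In the IL-33 signalling chain it was 5.29 for Irak2, 1.21 for Myd88 and -0.63 for Irak3. Among proteases and release genes it was 0.44 for Capns1 and 0.68 for Ripk1. The chromatin alarmins were at -0.57 (Hmgb1), -0.93 (Hmgb2) and -0.90 (Hmgn1). The NF-kB genes were at 0.97 (Nfkb2), 0.80 (Nfkbia), 1.14 (Nfkbie) and 0.69 (Ikbkg). Among transcription factors it was 1.33 for Batf, -2.11 for Hes1 and -5.12 for Heyl, and for Tfeb itself -1.19. The B-lineage genes were at -3.11 (Rag1), -3.16 (Rag2), -1.63 (Vpreb1) and -2.68 (Vpreb3), and Mrc1 at -2.27. Of the neighbours of Il33, Pdcd1lg2 was at 5.63, Uhrf2 at -1.52 and Ermp1 at -0.53. The interactions of Ermp1, Nfkbie and Pdcd1lg2 were lost without at least 1 single library, with highest adjusted p-values of 0.0513, 0.0658 and 0.128 over those left out. Without the 3 libraries that detected most genes, those of Capns1 (0.0684), Nfkbia (0.075), Nfkbie (0.0711) and Ermp1 (0.0692) were also lost. With no variance trend, those of Irak2 (0.0596), Ermp1 (0.0695), Nfkbia (0.107) and Pdcd1lg2 (0.111) were lost. The groups of 3 are too small for a search for single outlying libraries.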

How the results depend on the processing

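Il33 kept its direction in all alternatives run, 24 per contrast and 23 for the interaction. Its log2 change ran from -5.56 to -5.19 for 4-OHT in TFEB-ERT2 cells, from -0.21 to -0.018 in vector cells, from -5.43 to -5.02 for their difference, from 2.99 to 3.09 between the lines in vehicle and from -2.40 to -2.02 in 4-OHT. The lowest first value came without replicate 1 of TFEB-ERT2 cells in 4-OHT. The number of genes called with 4-OHT in vector cells, 2, became 0 with a pseudocount of 0.5, a minimum of 50, no variance trend, only the groups compared, upper-quartile scaling or edgeR, 42 with array weights, 36 without the 3 libraries that detected most genes and 48 with DESeq2. At an unadjusted p under 0.05 there were 822. Between the lines in vehicle, 705 became 259 without a variance trend, 352 with only the groups compared, 1125 with array weights and 1214 with DESeq2. The causes were not tested. Leaving out single libraries gave 2988 to 3737 calls for 4-OHT in TFEB-ERT2 cells, 0 to 51 in vector cells, 1781 to 2110 for the interaction, 433 to 826 between the lines in vehicle and 2991 to 3773 in 4-OHT. Replicate numbers do not pair the samples: deviations of same-numbered libraries correlated at -0.124 to 0.0959 over 18 pairs and those of others at -0.166 to 0.127 over 36. With a replicate block Il33 was at -5.35, -0.13, -5.22, 3.03 and -2.19, and 3601, 2, 2094, 723 and 3548 genes were called. Of the values of named genes under the alternatives, 6782 stayed on their side of the threshold, 135 lost it and 74 gained it. Depth limits what can be said of Il1rl1, the other cytokines and markers of other cells, and gene-level values limit what can be said of the starts of Il33.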
